A study of Homo sapiens with 6 samples.

Results

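This comparison sets MUTZ3 cells given a PLDLS peptide construct against MUTZ3 cells given an empty vector (EV), across all genes with enough reads. It holds the 4 libraries titled for PLDLS and EV, out of 6 in the series, and they were paired by the experiment number in the deposited table names. MUTZ3 is a human myelomonocytic leukaemia line with an inversion of chromosome 3, grown in αMEM with serum and medium conditioned by another cell line. All groups were transduced with a retroviral construct and labelled 72 h. The PLDLS libraries carry p50MX-3xFLAG-3xNLS-4xPLDLS-Zeo, with 4 peptide copies behind a FLAG tag and a nuclear localisation signal. EV replicate 1 carries p50MX-3xFLAG and EV replicate 2 carries p50MX-Zeo, so the vector and the replicate number cannot be told apart within EV. Neither EV construct is labelled with the nuclear localisation signal. The remaining 2 libraries carry p50MX-3xFLAG-3xNLS-4xPLASS-Zeo, the matched construct with a PLASS peptide, and are given beside the results because they share the PLDLS backbone. Every library comes from 1 cell line, and no label says that replicates were separate cultures, so the spread behind each p-value is that of these libraries and can be technical.

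PLDLS is a short motif by which transcription factors dock onto CTBP1 and CTBP2, corepressors that bring histone-modifying enzymes to DNA. EVI1, a zinc finger factor made from MECOM, binds CTBP through such motifs, and the inversion of chromosome 3 places MECOM under an enhancer of GATA2 that is active in blood progenitors. Per the labels the PLDLS peptide inhibits the contact of EVI1 with CTBP and PLASS does not. That contact was not measured here.

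Depth was 16437109 estimated reads in PLDLS replicate 1 (PLDLS 1), 5582078 in PLDLS 2 and 18932337 to 35800826 in EV, so PLDLS 2 was the least precise library. The first principal component, with 43.7% of the variance, separated the replicate numbers in all 3 groups. Of 10 fixed markers of a myelomonocytic line, 9 were tested, with PTPRC at 980.1 to 1091 CPM (counts per 1000000 reads, scaled by TMM) and CD34 at 605 to 894 CPM, whereas FLT3 had 0 or 1 read in each library. ANPEP, which encodes CD13, was the one called between PLDLS and EV, by 0.87 ± 0.15 (adjusted p = 0.0139) on the log2 scale, and it lost the call without PLDLS 1 (adjusted p = 0.0543) and without PLDLS 2 (adjusted p = 0.0952). Among epithelial markers EPCAM had 0 to 2 reads and KRT8 3.09 to 4.90 CPM, among lymphoid markers MS4A1 had 0 reads, CD3D 9 reads in PLDLS 1 and 0 in the others, and CD79A 3.49 to 7.13 CPM, and among stromal markers COL3A1 and DCN had 0 reads while PDGFRB was at 50.7 to 70.7 CPM. None of the tested markers of other cells was called by edgeR between PLDLS and EV.

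More genes were higher than lower with PLDLS. Among 14631 tested genes, 621 (4.24%) had an edgeR adjusted p under 0.05 and are said to be called, with 474 higher (3.24%) and 147 lower (1.0%). Of the 12057 genes with a mean of at least 2 CPM over these 4 libraries, 574 (4.76%) were called, 443 higher and 131 lower. Among the latter, 283 higher and 73 lower genes differed by more than 2-fold, and 42 and 9 by more than 4-fold. All 574 had the same sign within both experiments, beside 6902 of the 12057 genes. The fit that made the calls was paired by these experiments and favours such genes, so this is no separate replication. In 420 of the 443 and 123 of the 131 the PLDLS and EV libraries did not overlap, which calls made from these same libraries also favour. Without any test, both PLDLS libraries were above both EV libraries in 2400 tested genes (16.4%) and below them in 1969 (13.5%). With 2 libraries a group such an order also arises by chance in many genes, so these counts alone show no effect. In bulk RNA, fewer cells that express a gene and less RNA of that gene per cell cannot be told apart.

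These calls rest on the pairing by experiment. Without the replicate number as a block, edgeR called 2 genes (0.0137%), MTURN and PMP22, both higher, at the same threshold, while DESeq2 called 267 without the block, of which 265 were among the 621. Of 89 called genes that the naming rule picked, PMP22 alone was also called by edgeR without the block, and 53 were called by DESeq2 without it. The count also turned on single libraries, at 283 without PLDLS 1, 332 without PLDLS 2, 2143 without EV 1 and 700 without EV 2. The count of lower genes was 51, 73, 923 and 236 in the same order. Of 30 gene lists described below, 24 had over 1.5 times as many called members without EV 1, while the number of called members fell by over that factor in 15 without PLDLS 1, 14 without PLDLS 2 and 2 without EV 2. A value in parentheses after a gene whose call was lost in a setting is its adjusted p there.

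MECOM, the gene of EVI1 (chr3:169083507-169663712 on GRCh38), was at 604 and 519 CPM with PLDLS, 129 and 88.2 with EV and 531 and 342 with PLASS, each pair in the order of replicates 1 and 2. Both peptide groups were above EV in every library. The mean was 562 ± 60.4 CPM with PLDLS and 108 ± 28.6 with EV (SD, n = 2). The log2 difference was 2.40 ± 0.15 (adjusted p = 0.000803) between PLDLS and EV, a 5.27-fold level, and 2.0 ± 0.15 (adjusted p = 0.00563) between PLASS and EV, 1 of 2 genes called in that comparison (0.0137%). PLDLS and PLASS differed by 0.40 ± 0.14 (adjusted p = 0.295). Whether reads from a construct are among those of MECOM was not tested. Within MECOM, 1 RefSeq transcript took 33.7% and 36.7% of the gene's reads with PLDLS, 27.8% and 30.9% with PLASS, and 5.71% and 5.0% with EV. Another took 28.7% and 19.6% with EV and no read in the 4 peptide libraries. Both shares are Salmon's split of reads among transcripts that overlap.

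The genes of the CTBP corepressors were not called. CTBP1 was at 115 and 139.5 CPM with PLDLS and 130.5 and 137 with EV and CTBP2 at 176 and 126 CPM with PLDLS and 159.8 and 150.5 with EV, with overlapping groups in both. Their log2 differences were -0.082 ± 0.13 (adjusted p = 0.825) and -0.051 ± 0.14 (adjusted p = 0.91). Among 15 tested genes of the EVI1 and CTBP complex and of factors that recruit CTBP, 2 were called, both higher, with a median log2 difference of 0.02 beside -0.019 over all tested genes. MECOM was one of them. The other was ZEB2, which encodes a zinc finger repressor that itself binds CTBP, at 259.7 and 198 CPM with PLDLS, 87.6 and 97.5 with EV and 95.7 and 134 with PLASS, a log2 difference of 1.32 ± 0.19 (adjusted p = 0.00802) from EV. ZEB2 also differed from PLASS, by 1.01 ± 0.19 (adjusted p = 0.0391). Its paralogue ZEB1 was at 80.4 and 87.6 CPM with PLDLS and 61.1 and 65.9 with EV and was not called (adjusted p = 0.212).

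The 12 largest rises that the rule named included PMP22, ITGB7 and CD207, in which PLASS stayed near EV. PMP22, a membrane protein of myelin and of many other cells (chr17:15229779-15265326), was at 36.0 and 31.2 CPM with PLDLS, 5.11 and 3.98 with EV and 4.66 and 4.38 with PLASS. ITGB7, the integrin beta 7 subunit of gut-homing leukocytes (chr12:53191323-53207251), was at 31.4 and 45.5 CPM with PLDLS, 6.48 and 5.47 with EV and 5.87 and 6.25 with PLASS. CD207, the gene of langerin, a lectin of Langerhans cells (chr2:70824130-70835816), was at 20.2 and 20.04 CPM with PLDLS, 2.24 and 3.04 with EV and 3.99 and 2.60 with PLASS. In all 3 both PLDLS libraries stood above the 4 others, and EV and PLASS lay close together. The log2 differences from EV were 2.88 ± 0.19 (adjusted p = 0.000803), 2.64 ± 0.22 (adjusted p = 0.00161) and 2.96 ± 0.26 (adjusted p = 0.00161), which are 7.37-fold, 6.23-fold and 7.77-fold. From PLASS they were 2.89 ± 0.19 (adjusted p = 0.00205), 2.64 ± 0.23 (adjusted p = 0.00411) and 2.58 ± 0.26 (adjusted p = 0.00575).

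ANXA1, a calcium-dependent phospholipid-binding protein that limits leukocyte recruitment (chr9:73151865-73170393), was at 216 and 249 CPM with PLDLS, 24.6 and 39.1 with EV and 37.5 and 84.9 with PLASS. It rose by 2.92 ± 0.22 (adjusted p = 0.00108) against EV, and PLASS lay in between, at 0.88 ± 0.21 (adjusted p = 0.708) from EV. SP6, a Sp-family transcription factor (chr17:47844908-47876311), was at 156 and 132 CPM with PLDLS, 28.1 and 6.63 with EV and 34.9 and 13.5 with PLASS, and RUNX2, the Runt-domain factor of bone formation (chr6:45328330-45551082), at 9.29 and 7.05 CPM with PLDLS, 0.922 and 1.10 with EV and 2.02 and 3.81 with PLASS. Both were highest in the PLDLS libraries, by 3.32 ± 0.36 (adjusted p = 0.00271) and 3.08 ± 0.35 (adjusted p = 0.00295) against EV and by 2.76 ± 0.36 (adjusted p = 0.00976) and 1.61 ± 0.33 (adjusted p = 0.0471) against PLASS. KIAA0040, a gene with little known function, was at 11.3 and 11.5 CPM with PLDLS and 1.45 and 1.44 with EV, a rise of 2.97 ± 0.26 (adjusted p = 0.00161). GALNT3, which starts mucin-type O-glycosylation, was at 6.71 and 5.01 CPM with PLDLS and 0.764 and 0.718 with EV, a rise of 3.0 ± 0.31 (adjusted p = 0.00244). ADAMTS8, a secreted metalloprotease, rose by 3.09 ± 0.32 (adjusted p = 0.00255) from 0.606 and 0.718 CPM with EV to 6.11 and 4.82 with PLDLS. SH3PXD2B, a podosome scaffold, rose by 3.0 ± 0.37 (adjusted p = 0.00421) from 0.711 and 0.497 to 5.63 and 4.08 CPM.

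LAMB3 and HMOX1 also lay above EV in PLASS. LAMB3, a laminin chain of basement membranes (chr1:209614870-209652425), was at 3.77 and 4.27 CPM with PLDLS, 0.474 and 0.166 with EV and 0.577 and 2.03 with PLASS. HMOX1, the inducible haem oxygenase (chr22:35381096-35394207), was at 9.52 and 29.5 CPM with PLDLS, 1.90 and 0.995 with EV and 2.93 and 11.3 with PLASS. The HMOX1 groups of PLDLS and PLASS overlapped. The log2 differences from EV were 3.41 ± 0.57 (adjusted p = 0.0129) and 3.28 ± 0.53 (adjusted p = 0.0117), and those from PLASS were 1.79 ± 0.53 (adjusted p = 0.171) and 1.48 ± 0.48 (adjusted p = 0.223), so neither was called between the peptides. Calls were lost without PLDLS 1 for LAMB3 (0.105). The fitted difference of LAMB3 was 5.01 without EV 1 and 2.71 without EV 2, HMOX1 was 4.94 without EV 1 and 2.24 without EV 2, SP6 was 4.09 without PLDLS 1, 2.60 without PLDLS 2, 4.07 without EV 1 and 2.70 without EV 2 and RUNX2 was 2.45 without PLDLS 1.

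The 12 largest falls that the rule named included MARCKS, PREX2 and HLA-DOA, and MX1 and SIGLEC1, which are described with their lists. MARCKS, an actin-binding substrate of protein kinase C (chr6:113857345-113863475), was at 0.898 and 1.48 CPM with PLDLS, 6.24 and 12.9 with EV and 8.22 and 7.54 with PLASS. PREX2, an exchange factor for Rac, was at 1.68 and 2.97 CPM with PLDLS, 15.3 and 16.1 with EV and 12.2 and 11.6 with PLASS. HLA-DOA, which modulates the loading of peptides onto MHC class II (chr6:33004182-33009591), was at 5.93 and 7.05 CPM with PLDLS, 31.1 and 28.3 with EV and 29.2 and 26.3 with PLASS. In each, both PLDLS libraries lay below the 4 others. The log2 differences from EV were -2.99 ± 0.38 (adjusted p = 0.00451), -2.89 ± 0.26 (adjusted p = 0.00182) and -2.23 ± 0.19 (adjusted p = 0.00161), and those from PLASS -2.83 ± 0.39 (adjusted p = 0.011), -2.5 ± 0.27 (adjusted p = 0.00604) and -2.13 ± 0.19 (adjusted p = 0.00418).

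The other falls among the 12 included enzymes, a centrosomal gene and genes with shared sequence. NDST3, a heparan sulfate sulfotransferase, fell by 2.17 ± 0.33 (adjusted p = 0.00866) on the log2 scale, from 10.98 and 14.9 CPM with EV to 3.53 and 1.48 with PLDLS. CEP70, a centrosomal protein, changed by -2.10 ± 0.25 (adjusted p = 0.00371), VNN2, a GPI-anchored pantetheinase of leukocytes, by -1.95 ± 0.22 (adjusted p = 0.00308), ARHGEF17 by -1.91 ± 0.33 (adjusted p = 0.0155) and DEPP1, a target of FOXO factors, by -1.93 ± 0.37 (adjusted p = 0.0233). CEP70 was at 3.29 and 1.48 CPM with PLDLS and 13.2 and 6.91 with EV. VNN2 was at 10.2 and 5.94 CPM with PLDLS and 36.1 and 24.4 with EV. Against PLASS these 2 were called, at -1.60 ± 0.25 (adjusted p = 0.0182) and -1.69 ± 0.22 (adjusted p = 0.00976). ARHGEF17 and DEPP1 were not called against PLASS, at -1.52 ± 0.35 (adjusted p = 0.073) and -1.17 ± 0.40 (adjusted p = 0.253). DEPP1 was at 2.93 and 2.76 CPM with PLASS and 3.48 and 7.13 with EV. GTF2IP1, a pseudogene copy of GTF2I, changed by -2.26 ± 0.30 (adjusted p = 0.00591), and BCL2L2-PABPN1, a readthrough of 2 genes with 0 reads in PLDLS 2, by -2.67 ± 0.53 (adjusted p = 0.0265). Both share sequence with other genes, so their values depend on how Salmon split the reads. Without PLDLS 1 the only PLDLS library of BCL2L2-PABPN1 had 0 reads, so no difference is given for it. Significance was lost without PLDLS 1 for ARHGEF17 (0.294) and DEPP1 (0.182), without PLDLS 2 for DEPP1 (0.0513), without EV 2 for DEPP1 (0.0539). The same held with DESeq2 for BCL2L2-PABPN1 (0.174). On the log2 scale the difference of MARCKS was -3.59 without EV 1, NDST3 was -3.21 without PLDLS 1 and ARHGEF17 was -1.30 without PLDLS 1 and -1.32 without EV 1.

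Receptors by which myeloid cells sense sialic acid, antibodies and neighbouring cells were mostly higher. In a list of SIGLEC lectins, Fc receptors and adhesion receptors of the ADGRE family, 12 of 23 tested members were called higher and 1 lower. Over all tested genes 3.24% were called higher and 1.0% lower, and these shares are the background for each list below as well. In 20 of the 23 the log2 difference was above 0, beside 6937 of 14631 over all tested genes. The list's median was 1.17 against EV, beside 0.16 for PLASS against EV and -0.019 for PLDLS over all tested genes. FCGR2A, an activating IgG receptor (chr1:161505457-161524048), was at 38.3 and 28.9 CPM with PLDLS, 8.80 and 8.07 with EV and 8.32 and 9.33 with PLASS, and SIGLEC6, a lectin of mast cells and placenta (chr19:51517819-51531670), at 39.2 and 52.9 CPM with PLDLS, 13.4 and 12.3 with EV and 10.4 and 14.2 with PLASS. In both genes the PLDLS libraries lay above the 4 others. ADGRE2 (chr19:14724171-14778560), an adhesion receptor that binds chondroitin sulfate, was at 169 and 162 CPM with PLDLS, 70.02 and 68.5 with EV and 89.9 and 80.4 with PLASS, and ADGRE1 (chr19:6887579-6940450), the human relative of the mouse macrophage antigen F4/80, at 28.3 and 70.9 CPM with PLDLS, 11.2 and 19.7 with EV and 9.47 and 20.4 with PLASS. ADGRE1 was also higher in replicate 2 than in replicate 1 of each group.

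The log2 differences of these 4 from EV were 2.0 ± 0.19 (adjusted p = 0.00191), 1.81 ± 0.19 (adjusted p = 0.00255), 1.26 ± 0.12 (adjusted p = 0.00201) and 1.59 ± 0.18 (adjusted p = 0.00295), and from PLASS 1.94 ± 0.20 (adjusted p = 0.00575), 1.91 ± 0.20 (adjusted p = 0.00575), 0.96 ± 0.12 (adjusted p = 0.00976) and 1.69 ± 0.18 (adjusted p = 0.00604). FCGR2B, the inhibitory IgG receptor, rose by 1.5 ± 0.20, SIGLEC14 by 1.57 ± 0.25 and SIGLEC5 by 1.52 ± 0.25, with SIGLEC12, SIGLEC15, SIGLEC9, SIGLEC10 and CD22 also called, CD22 at 2.21 ± 0.49. Called members named beyond the 4 with the smallest p of a list were chosen after their values were seen, here and below. SIGLEC1, the sialic acid receptor of tissue macrophages that interferon induces, went the other way, at 0.419 and 1.48 CPM with PLDLS, 3.56 and 3.31 with EV and 3.70 and 5.68 with PLASS, a log2 difference of -2.22 ± 0.45 (adjusted p = 0.0283). FCGR2A with FCGR2B, SIGLEC5 with SIGLEC14 and ADGRE2 with ADGRE5 are near-identical over long stretches, so their shares of reads are uncertain. The count of higher members was 8 without PLDLS 1, 6 without PLDLS 2, 14 without EV 1 and 9 without EV 2. No call remained without PLDLS 1 for SIGLEC1 (0.303), SIGLEC12 (0.0614), SIGLEC9 (0.0765), SIGLEC10 (0.0934) and CD22 (0.056), without PLDLS 2 for SIGLEC5 (0.0542), SIGLEC12 (0.0847), SIGLEC15 (0.202), SIGLEC9 (0.191), SIGLEC10 (0.371) and CD22 (0.119), without EV 2 for SIGLEC9 (0.087), SIGLEC10 (0.111) and CD22 (0.0807). Calls also ended with DESeq2 for CD22 (0.0528), with DESeq2 size factors for SIGLEC10 (0.0516), with upper-quartile scaling for SIGLEC10 (0.058), with the filter of 2 CPM for SIGLEC10 (0.0546), in libraries thinned to equal depth for SIGLEC1 (0.137), SIGLEC9 (0.101) and CD22 (0.17). The log2 value of SIGLEC1 was -1.36 without PLDLS 1 and -2.93 without PLDLS 2 and CD22 was 3.42 without PLDLS 1 and 3.60 without EV 1.

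S100A and annexin genes, which encode calcium-binding proteins of myeloid cells and membranes, all lay above EV. All 17 tested members had a log2 difference above 0 against EV, beside 6937 of 14631 over all tested genes. Of the 17, 8 were called higher, beside 3.24% over all tested genes. The median was 0.85, beside 0.03 for PLASS against EV. S100A8 and S100A9, the subunits of calprotectin, were at 18.4 and 50.7 CPM with PLDLS, 6.11 and 15.5 with EV and 6.39 and 9.41 with PLASS, and 53.2 and 87.4 CPM with PLDLS, 19.5 and 41.6 with EV and 20.4 and 27.7 with PLASS. Replicate 2 was above replicate 1 in each group, and within each experiment PLDLS was above both EV and PLASS. Their log2 differences were 1.65 ± 0.23 (adjusted p = 0.00665) and 1.25 ± 0.18 (adjusted p = 0.00726) from EV and 1.96 ± 0.24 (adjusted p = 0.00853) and 1.51 ± 0.18 (adjusted p = 0.00853) from PLASS. ANXA2, a membrane organiser that binds S100A10, was at 231 and 246 CPM with PLDLS, 80.1 and 128 with EV and 116 and 154 with PLASS and rose by 1.24 ± 0.16 (adjusted p = 0.00451). S100A11 rose by 1.11 ± 0.15 (adjusted p = 0.00572), and S100A4, S100A6 and ANXA5 were also called. S100A12 was at 1.5 and 3.15 CPM with PLDLS and 0.922 and 1.49 with EV and was not called (adjusted p = 0.272). The count of higher members was 6 without PLDLS 1, 6 without PLDLS 2, 9 without EV 1 and 8 without EV 2. The threshold was missed without PLDLS 1 for S100A11 (0.0523) and ANXA5 (0.321), without PLDLS 2 for S100A6 (0.0875) and ANXA5 (0.148), without PLASS 1 for ANXA5 (0.105), without PLASS 2 for ANXA5 (0.126). A further loss came with DESeq2 size factors for ANXA5 (0.051), with only the PLDLS and EV libraries for ANXA5 (0.103), in libraries thinned to equal depth for ANXA5 (0.0741).

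Transcription factors of myeloid lineages changed in both directions. In that list 6 of 32 tested members were called higher and 4 lower, and the median was 0.32. The number of higher members was 4 without PLDLS 1, 5 without PLDLS 2, 12 without EV 1 and 5 without EV 2, and that of lower members 1 without PLDLS 1, 1 without PLDLS 2, 4 without EV 1 and 4 without EV 2. Besides RUNX2, the higher ones were GFI1B, a repressor of erythroid and megakaryocytic cells, CEBPE and CEBPA, factors of granulocyte maturation, RUNX1, a master regulator of blood cells, and ID2, an inhibitor of E proteins. GFI1B was at 118 and 90.4 CPM with PLDLS, 48.8 and 25.4 with EV and 50.2 and 17.4 with PLASS, with both PLDLS libraries above the 4 others, and rose by 1.56 ± 0.23 (adjusted p = 0.00865). CEBPE was at 6.11 and 7.05 CPM with PLDLS, 2.34 and 2.21 with EV and 2.55 and 2.76 with PLASS and rose by 1.5 ± 0.24 (adjusted p = 0.0117), and CEBPA rose by 0.95 ± 0.20 (adjusted p = 0.035) from 116 and 87.5 CPM to 163 and 235. Against PLASS the differences of GFI1B, CEBPE and CEBPA were 1.76 ± 0.24 (adjusted p = 0.011), 1.30 ± 0.25 (adjusted p = 0.0396) and 1.45 ± 0.21 (adjusted p = 0.0126). In ID2 the PLASS libraries lay with PLDLS, at 55.3 and 85.7 CPM with PLDLS, 18.4 and 40.8 with EV and 62.6 and 86.6 with PLASS, 1.32 ± 0.18 (adjusted p = 0.00633) from EV with PLDLS and -0.10 ± 0.18 (adjusted p = 0.938) from PLASS.

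The lower factors were MYB, IRF8, GFI1 and LMO2. MYB, which keeps progenitors cycling, was at 151 and 76.1 CPM with PLDLS, 283 and 247 with EV and 279.6 and 136 with PLASS, and fell by 1.31 ± 0.21 (adjusted p = 0.0105) on the log2 scale. IRF8, a factor of monocyte and dendritic cell fate, was at 0.479 and 0.557 CPM with PLDLS, 1.61 and 4.14 with EV and 2.40 and 4.30 with PLASS, -2.19 ± 0.41 (adjusted p = 0.022), and the PLDLS values rest on 8 and 3 reads. GFI1, the repressor paralogous to GFI1B, changed by -0.98 ± 0.21 (adjusted p = 0.0346) and LMO2, an adaptor of progenitor complexes, by -0.94 ± 0.18 (adjusted p = 0.0246). SPI1, the factor PU.1, was at 101 and 124 CPM with PLDLS and 105 and 129 with EV and did not pass (adjusted p = 0.877). The call was lost without PLDLS 1 for CEBPE (0.0682), IRF8 (0.0704), LMO2 (0.229), GFI1 (0.197) and RUNX1 (0.226), without PLDLS 2 for MYB (0.0544), IRF8 (0.109), GFI1 (0.0747), CEBPA (0.243) and RUNX1 (0.0746), without EV 2 for IRF8 (0.0617), CEBPA (0.0824) and RUNX1 (0.0882). The fitted difference of RUNX2 was 2.45 without PLDLS 1.

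Some maturation markers rose. Neutrophil genes of late granules and maturation had 3 called of 9 tested, all higher, with a median of 0.76. The other 9 of the 18 members were not tested, among them LTF, LCN2, MMP8 and FCGR3B, with 0 reads in every library. PADI4, which converts arginine to citrulline on histones, was at 49.1 and 59.8 CPM with PLDLS, 26.2 and 17.6 with EV and 20.9 and 20.8 with PLASS, 1.31 ± 0.21 (adjusted p = 0.0116), and MGAM, a glucosidase of granulocytes, was at 55.2 and 38.4 CPM with PLDLS and 33.1 and 22.3 with EV, 0.76 ± 0.15 (adjusted p = 0.0259). CEBPE was the third. Of 6 tested primary granule genes CST7, a cystatin, was called, at 1.18 ± 0.24 (adjusted p = 0.0282). MPO, the myeloperoxidase of primary granules, was at 79.1 and 78.5 CPM with PLDLS and 54.7 and 82.05 with EV and was not called. Of 19 monocyte and macrophage genes 3 were higher and 2 lower, with a median of 0.078: S100A8, S100A9 and CD36, a scavenger receptor, against SIGLEC1 and VSIG4, a complement receptor of tissue macrophages. VSIG4 was at 7.67 and 3.53 CPM with PLDLS, 17.6 and 14.5 with EV and 17.4 and 13.6 with PLASS, -1.48 ± 0.23 (adjusted p = 0.0105) from EV and -1.43 ± 0.24 (adjusted p = 0.0219) from PLASS. CD14, the monocyte co-receptor for endotoxin, was at 0.829 to 2.11 CPM over these 4 libraries. Calls were lost without PLDLS 1 for MGAM (0.203), without PLDLS 2 for PADI4 (0.0668), MGAM (0.131), CST7 (0.191) and CD36 (0.204), without EV 2 for CST7 (0.0519). Loss also occurred in libraries thinned to equal depth for CST7 (0.0741).

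Other genes of dendritic cells lay mostly below EV, unlike CD207. Of 15 tested members 11 were below 0, beside 7694 of 14631 over all tested genes, and the median was -0.51. In each direction 1 was called, beside 3.24% higher and 1.0% lower over all tested genes. The lower one was CD40, a co-stimulatory receptor, at 5.75 and 5.2 CPM with PLDLS, 12.5 and 26.3 with EV and 19.04 and 16.9 with PLASS, -1.70 ± 0.32 (adjusted p = 0.0228). In the list of mast cells, basophils and eosinophils, SIGLEC6 and HDC, the histamine-forming enzyme, were higher and KIT lower among 13. HDC was at 21.3 and 56.2 CPM with PLDLS, 10.1 and 15.9 with EV and 8.89 and 17.3 with PLASS, 1.45 ± 0.21 (adjusted p = 0.0071) from EV and 1.49 ± 0.21 (adjusted p = 0.0124) from PLASS. Of 7 tested cytotoxic and natural killer genes PRF1 and NCR2 were called. The other 13 of the 20 members were not tested, among them GZMA, GZMB, GZMH and GZMK, with 0 reads in every library. PRF1, the pore-forming perforin, was at 11.1 and 8.72 CPM with PLDLS, 2.5 and 1.05 with EV and 2.02 and 2.03 with PLASS, and NCR2, an activating receptor, at 64.4 and 62.7 CPM with PLDLS, 22.2 and 9.50 with EV and 17.6 and 9.41 with PLASS. In both, the PLDLS libraries stood above the 4 others, by 2.46 ± 0.30 (adjusted p = 0.00421) and 2.10 ± 0.26 (adjusted p = 0.00447) against EV. Of 14 erythroid and megakaryocytic genes GFI1B was the only one called. Significance was lost without PLDLS 1 for CD40 (0.051), without PLDLS 2 for CD40 (0.0962). The log2 value of CD40 was -2.36 without EV 1 and PRF1 was 3.13 without EV 1.

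Stem and progenitor genes were split. In that list 2 of 27 were called higher and 3 lower, with a median of 0.016. HLF, a PAR bZIP factor of blood stem cells (chr17:55264960-55325187), was at 46.1 and 28.4 CPM with PLDLS, 166 and 81.3 with EV and 115 and 52.7 with PLASS. Within each experiment PLDLS was lowest and PLASS in between. The log2 difference of HLF from EV was -1.70 ± 0.15 (adjusted p = 0.00161) and from PLASS -1.13 ± 0.15 (adjusted p = 0.0104). CD200, a surface inhibitor of immune cells, and KIT, the receptor of stem cell factor, changed by -1.65 ± 0.27 (adjusted p = 0.0117) and -0.72 ± 0.14 (adjusted p = 0.0215). HAVCR2, which encodes TIM-3, was at 21.1 and 19.5 CPM with PLDLS, 4.82 and 5.36 with EV and 7.31 and 12.7 with PLASS, and CD44, the hyaluronan receptor, at 1180 and 1157 CPM with PLDLS, 441 and 484 with EV and 570.3 and 809 with PLASS. PLASS lay between EV and PLDLS in both. They rose by 2.02 ± 0.24 (adjusted p = 0.00388) and 1.34 ± 0.16 (adjusted p = 0.00394) against EV, and differed from PLASS by 1.09 ± 0.24 (adjusted p = 0.0623) and 0.78 ± 0.16 (adjusted p = 0.0483). CD34, the progenitor surface antigen, was at 829.5 and 692 CPM with PLDLS and 894 and 629 with EV and was not called. No call remained without PLDLS 1 for CD200 (0.168) and KIT (0.19), without PLDLS 2 for KIT (0.0825).

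Interferon-stimulated genes were mostly lower. Of 24 tested members 6 were called lower and 2 higher, beside 1.0% and 3.24% over all tested genes. In 19 the log2 difference was below 0, beside 7694 of 14631 over all tested genes. The median was -0.41, beside -0.041 for PLASS against EV. MX1, an antiviral GTPase (chr21:41420558-41459214), was at 1.68 and 2.60 CPM with PLDLS, 9.22 and 11.9 with EV and 7.07 and 13.3 with PLASS, with both PLDLS libraries below the 4 others. IFI6, an antiapoptotic mitochondrial protein, was at 4.31 and 6.68 CPM with PLDLS, 9.66 and 20.6 with EV and 8.37 and 14.8 with PLASS, and USP18, which removes ISG15 from proteins, at 0.719 and 0.928 CPM with PLDLS, 2.48 and 4.03 with EV and 1.97 and 3.49 with PLASS. They changed by -2.33 ± 0.26 (adjusted p = 0.00273), -1.38 ± 0.21 (adjusted p = 0.00871) and -1.89 ± 0.34 (adjusted p = 0.0178) against EV. XAF1, IFIT1 and IFIT5 were also lower, with log2 differences of -1.28 ± 0.23, -1.65 ± 0.35 and -1.79 ± 0.39. RSAD2, which encodes viperin, and its neighbour CMPK2, a mitochondrial kinase, rose. RSAD2 was at 75.1 and 59.9 CPM with PLDLS, 42.7 and 34.4 with EV and 42.5 and 39.01 with PLASS, 0.81 ± 0.14 (adjusted p = 0.0158), and CMPK2 at 91.4 and 54.9 CPM with PLDLS, 60.1 and 34.3 with EV and 60.9 and 30.7 with PLASS, 0.64 ± 0.14 (adjusted p = 0.0385). The count of lower members was 3 without PLDLS 1, 1 without PLDLS 2, 8 without EV 1 and 4 without EV 2, and that of higher members 0 without PLDLS 1, 0 without PLDLS 2, 2 without EV 1 and 2 without EV 2. The threshold was missed without PLDLS 1 for USP18 (0.0986), XAF1 (0.178), IFIT5 (0.197), RSAD2 (0.155) and CMPK2 (0.163), without PLDLS 2 for IFI6 (0.0562), USP18 (0.0747), XAF1 (0.0562), IFIT1 (0.119), IFIT5 (0.131), RSAD2 (0.0691) and CMPK2 (0.285), without EV 2 for IFIT1 (0.0574) and IFIT5 (0.0998), without PLASS 1 for CMPK2 (0.0749), without PLASS 2 for CMPK2 (0.076). A further loss came with DESeq2 for IFIT5 (0.0643), with limma-voom for IFIT5 (0.0565), with only the PLDLS and EV libraries for CMPK2 (0.0603), in libraries thinned to equal depth for USP18 (0.059), XAF1 (0.0679), IFIT1 (0.0647), IFIT5 (0.194) and CMPK2 (0.0534). The fitted difference of IFIT1 was -2.66 without PLDLS 1.

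Interferon signals reach such genes through the interferon-stimulated response element (ISRE), bound by ISGF3 and IRF factors. RefSeq promoter windows of GRCh38.p14 were found for 17 of the 24 tested members, and 10 of the 17 hold GAAANNGAAA on either strand within the 250 bases before a start. Of those 10, 8 had a log2 difference below 0, a share close to the 19 of 24 over the whole list. XAF1, called lower, and CMPK2, called higher, have windows without the element, and USP18, called lower, has no window. The stretches below are shown because they carry the element in 4 called lower genes and in RSAD2, which was called higher. Each is written 5′ to 3′ on the strand of its gene, with the matches in capitals.
MX1, chr21:41431824-41431893, plus strand: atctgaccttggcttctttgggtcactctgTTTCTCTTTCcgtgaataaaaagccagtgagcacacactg
IFI6, chr1:27672246-27672378, minus strand: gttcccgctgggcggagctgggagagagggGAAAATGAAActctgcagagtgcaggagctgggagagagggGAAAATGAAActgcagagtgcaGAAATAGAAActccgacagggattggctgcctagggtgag
IFIT1, chr10:89392477-89392559, plus strand: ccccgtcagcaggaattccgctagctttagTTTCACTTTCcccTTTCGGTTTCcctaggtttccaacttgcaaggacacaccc
IFIT5, chr10:89414493-89414567, plus strand: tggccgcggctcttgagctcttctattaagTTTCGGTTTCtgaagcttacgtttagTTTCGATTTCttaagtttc
RSAD2, chr2:6877602-6877671, plus strand: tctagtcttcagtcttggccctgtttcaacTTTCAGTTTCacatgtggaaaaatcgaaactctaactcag
IFI6 has 3 matches, IFIT1 and IFIT5 have 2 each, and MX1 and RSAD2 have 1, so a single match stands before a lower and before a higher gene.

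Over all 11368 tested genes with a promoter window, 3.44% hold the ISRE, against 12 of 119 called lower genes (10.1%) and 14 of 379 called higher genes (3.69%), and 3.02% of all 35116 windows hold it. The other motifs were searched the same way, on both strands and with overlaps between motifs allowed. TGACTCA, bound by AP-1, was in 4.17% of tested genes, 8.71% of the higher and 0.84% of the lower ones. GGGANTTTCC, a kB site, was in 0.739%, 0.528% and 4.2%, and CAGGAAGT, an ETS site, in 3.84%, 4.22% and 7.56%. CACCTG, an E-box read by ZEB factors, was in 20.5%, 26.6% and 19.3%. GAAGATGAG, read by the second zinc finger domain of EVI1, was in 0.343% of tested genes and in 5 higher and 0 lower ones, and GACAAGATA, read by the first, in 0.044%, in 1 higher and 0 lower. These shares are descriptions of letters in windows, with no test.

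Genes of NF-kB signalling were lower in part. Of 23 tested members 4 were called, all lower, beside 1.0% lower over all tested genes. The median was -0.41, at 0.04 within experiment 1 and -0.94 within experiment 2, beside 0.43 for PLASS against EV. The 4 were RELB and NFKB2, the pair of the non-canonical pathway, NFKB1, the p50 precursor, and ICAM1, an adhesion ligand. RELB was at 29.6 and 38.04 CPM with PLDLS, 54.7 and 84.1 with EV and 64.9 and 63.9 with PLASS, -1.02 ± 0.18 (adjusted p = 0.0151), and NFKB2 at 57.98 and 47.9 CPM with PLDLS, 89.2 and 118 with EV and 107 and 91.6 with PLASS, -0.96 ± 0.18 (adjusted p = 0.0222). ICAM1 was at 51.5 and 155 CPM with PLDLS, 73.5 and 308 with EV and 92.99 and 292 with PLASS, -0.76 ± 0.15 (adjusted p = 0.0259), and NFKB1 changed by -0.85 ± 0.19 (adjusted p = 0.0465). The PLASS libraries lay within the range of EV in all 4. In ICAM1 and no other of them the PLDLS and EV groups overlapped. The count of lower members was 4 without PLDLS 1, 0 without PLDLS 2, 13 without EV 1 and 3 without EV 2, and that of higher members 0 without PLDLS 1, 2 without PLDLS 2, 0 without EV 1 and 6 without EV 2, so the balance of the list turned to higher without PLDLS 2 and without EV 2. The call was lost without PLDLS 1 for RELB (0.0973), ICAM1 (0.0683) and NFKB1 (0.0786), without PLDLS 2 for RELB (0.0558), NFKB2 (0.137), ICAM1 (0.213) and NFKB1 (0.288), without EV 2 for NFKB1 (0.0643).

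Of 13 tested MHC class II genes 12 were below 0, beside 7694 of 14631 over all tested genes, with a median of -0.29. Of the 13, 2 were called, both lower, beside 1.0% lower over all tested genes. Besides HLA-DOA this was HLA-DQA1, an antigen-presenting chain, at 19.4 and 29.1 CPM with PLDLS, 35.2 and 54.2 with EV and 42.02 and 45.6 with PLASS, -0.89 ± 0.18 (adjusted p = 0.0267). CIITA, the coactivator of these genes, was at 76.1 and 60.5 CPM with PLDLS and 128 and 57.96 with EV and was not called (adjusted p = 0.449). HLA genes share sequence, and MUTZ3 alleles may differ from the RefSeq transcripts. Calls were lost without PLDLS 1 for HLA-DQA1 (0.202), without PLDLS 2 for HLA-DQA1 (0.0739).

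Cell cycle genes lay below EV by small amounts. All 25 tested G2/M genes had a log2 difference below 0, with a median of -0.46, and 34 of 35 DNA replication genes did, with a median of -0.28, beside 7694 of 14631 over all genes. In 14 of the 25 G2/M genes and in 3 of the 35 DNA replication genes both PLDLS libraries were below both EV libraries, beside 13.5% over all tested genes. Only CCNB1, the mitotic cyclin, and BUB1, a spindle checkpoint kinase, were called, at 84.3 and 68.5 CPM with PLDLS and 129 and 104 with EV, -0.61 ± 0.12 (adjusted p = 0.0297), and 110.2 and 94.5 CPM with PLDLS and 180.3 and 135 with EV, -0.62 ± 0.13 (adjusted p = 0.0361). The number of lower G2/M genes was 0 without PLDLS 1, 0 without PLDLS 2, 9 without EV 1 and 2 without EV 2. In DNA replication edgeR called 0, with 14 of 35 at an unadjusted p under 0.05, limma-voom called 0 and DESeq2 1, edgeR called 7 without EV 1, and the smallest adjusted p was 0.061, for CDC6, a helicase loader. In MYC and ribosome biogenesis genes 23 of 24 were below 0, with a median of -0.21 for PLDLS and -0.19 for PLASS against EV, and edgeR, DESeq2 and limma-voom called 0, with 4 at an unadjusted p under 0.05 in edgeR, while without EV 1 edgeR called 7 lower and 1 higher. Significance was lost without PLDLS 1 for CCNB1 (0.224) and BUB1 (0.295), without PLDLS 2 for CCNB1 (0.123) and BUB1 (0.0747), without PLASS 1 for CCNB1 (0.0666) and BUB1 (0.0595), without PLASS 2 for CCNB1 (0.0523).

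Some immediate early and feedback genes of growth factor signalling rose. Of 24 immediate early genes 5 were called, all higher, with a median of 0.50 for PLDLS and 0.47 for PLASS against EV. DUSP6, a phosphatase that ERK signalling induces and that acts on ERK, was at 728 and 661 CPM with PLDLS, 294 and 172 with EV and 325 and 212 with PLASS, with both PLDLS libraries above the 4 others. It rose by 1.63 ± 0.17 (adjusted p = 0.00255) against EV and by 1.41 ± 0.17 (adjusted p = 0.00853) against PLASS. FOSL2, an AP-1 subunit, was at 409.8 and 482 CPM with PLDLS, 179 and 110 with EV and 170.2 and 241 with PLASS, 1.62 ± 0.25 (adjusted p = 0.0098) from EV. EGR3 was at 13.4 and 44.4 CPM with PLDLS, 6.50 and 21.4 with EV and 9.86 and 42.8 with PLASS, and DUSP5 and KLF6 were also called. In EGR3, PLDLS 2 and PLASS 2 lay close together, and the difference between the peptides was 0.24 ± 0.18 (adjusted p = 0.754). The number of higher members was 2 without PLDLS 1, 5 without PLDLS 2, 12 without EV 1 and 4 without EV 2. No call remained without PLDLS 1 for EGR3 (0.115), DUSP5 (0.142) and KLF6 (0.368), without PLDLS 2 for EGR3 (0.0508), without EV 2 for KLF6 (0.0555). Calls also ended with DESeq2 size factors for KLF6 (0.055), with upper-quartile scaling for KLF6 (0.0547), with the filter of 2 CPM for KLF6 (0.0548).

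In the list of TGF-beta, BMP and SMAD genes 6 of 25 tested members were called higher and 1 lower, with a median of 0.22. SMAD7, an inhibitory SMAD that the pathway itself induces, was at 46.3 and 113 CPM with PLDLS, 15.4 and 42.4 with EV and 33.5 and 97.7 with PLASS, 1.5 ± 0.14 (adjusted p = 0.00191) from EV with PLDLS, 1.16 ± 0.14 (adjusted p = 0.0606) with PLASS, and 0.34 ± 0.14 (adjusted p = 0.383) between the peptides. ACVR1, a type I receptor, rose by 1.08 ± 0.17 (adjusted p = 0.0116) and TGFBR2, a type II receptor, by 0.64 ± 0.14 (adjusted p = 0.0403). NOG, a secreted BMP antagonist, was at 0.539 and 1.11 CPM with PLDLS, 3.40 and 1.99 with EV and 3.89 and 3.57 with PLASS, -1.99 ± 0.45 (adjusted p = 0.0437). Among 29 genes of cytokine receptors and JAK-STAT feedback, IL6R and SOCS1 were higher, by 1.16 ± 0.24 (adjusted p = 0.0314) and 1.27 ± 0.24 (adjusted p = 0.0228), and IL7R and KIT lower, IL7R by -1.20 ± 0.21 (adjusted p = 0.017). In the TGF-beta list the number of higher members was 3 without PLDLS 1, 3 without PLDLS 2, 10 without EV 1 and 6 without EV 2. The threshold was missed without PLDLS 1 for ACVR1 (0.0651), TGFBR2 (0.262), NOG (0.498), IL6R (0.0668) and SOCS1 (0.073), without PLDLS 2 for ACVR1 (0.0698), TGFBR2 (0.124), IL6R (0.116), SOCS1 (0.103) and IL7R (0.0668), without EV 1 for NOG (0.116), without EV 2 for TGFBR2 (0.0842), without PLASS 2 for TGFBR2 (0.0597). A further loss came with DESeq2 for NOG (0.0857), in libraries thinned to equal depth for NOG (0.139). On the log2 scale the difference of NOG was -1.04 without PLDLS 1.

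The lists of cholesterol and fatty acid synthesis, hypoxia and glycolysis, oxidative stress, and the integrated stress and unfolded protein response held 2 to 5 calls each. In cholesterol and fatty acid synthesis 3 of 24 were higher and 1 lower. SQLE, squalene epoxidase, was at 285 and 329.7 CPM with PLDLS, 113 and 140 with EV and 149 and 223 with PLASS, 1.29 ± 0.14 (adjusted p = 0.00255), INSIG1, which retains the SREBP machinery, rose by 1.09 ± 0.15 (adjusted p = 0.00596) and ELOVL6, a fatty acid elongase, by 1.65 ± 0.32 (adjusted p = 0.0251). SREBF1, a SREBP gene, changed by -0.98 ± 0.18 (adjusted p = 0.0201). Of 29 hypoxia and glycolysis genes 3 were higher, SLC2A3, a glucose transporter, by 1.38 ± 0.18 (adjusted p = 0.00501), NDRG1 by 1.34 ± 0.15 (adjusted p = 0.003) and HK1, a hexokinase, by 0.89 ± 0.13 (adjusted p = 0.00858). Of 23 NRF2 and oxidative stress genes 4 were higher and 1 lower. SLC7A11, the cystine transporter, was at 59.5 and 119 CPM with PLDLS, 24.4 and 45.1 with EV and 41.8 and 166 with PLASS, 1.34 ± 0.24 (adjusted p = 0.0189) from EV and -0.021 ± 0.24 (adjusted p = 0.997) from PLASS, and PRDX1, a peroxiredoxin, changed by -1.14 ± 0.20 (adjusted p = 0.0155). DDIT4, an mTORC1 inhibitor of the stress response, was at 164 and 802 CPM with PLDLS, 70.97 and 138 with EV and 107 and 580 with PLASS, 1.81 ± 0.31 (adjusted p = 0.0151), and 2 of 22 members of its list were called. The call was lost without PLDLS 1 for SLC7A11 (0.132), without PLDLS 2 for SREBF1 (0.107), ELOVL6 (0.131), HK1 (0.0519) and PRDX1 (0.0892), without EV 2 for ELOVL6 (0.0705). It was also lost in libraries thinned to equal depth for ELOVL6 (0.0573). The log2 value of DDIT4 was 2.57 without EV 1 and 1.15 without EV 2.

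The remaining lists held few calls, with 1 of 23 p53 targets (4.35%) and 1 of 26 apoptosis regulators (3.85%) near the 4.24% over all tested genes. ITGB7 and ITGA9 were higher among 20 integrin genes, ITGA9 by 1.05 ± 0.17 (adjusted p = 0.0111). Of 23 p53 target genes CDKN1A, an inhibitor of cyclin-dependent kinases, was called, at 443 and 666 CPM with PLDLS, 315 and 316 with EV and 417 and 666 with PLASS, 0.77 ± 0.18 (adjusted p = 0.0478) from EV and 0.039 ± 0.18 (adjusted p = 0.981) from PLASS. Of 26 apoptosis regulators BMF, a BH3-only protein, was called, at 111 and 127 CPM with PLDLS and 57.4 and 31.4 with EV, 1.45 ± 0.22 (adjusted p = 0.00966). CTSC and CD63 were higher among 30 lysosomal genes, by 0.57 ± 0.13 (adjusted p = 0.0426) and 0.57 ± 0.13 (adjusted p = 0.0447). Of 23 heat shock genes edgeR, DESeq2 and limma-voom called 0, with 3 at an unadjusted p under 0.05 in edgeR and a median of -0.096, while without EV 1 edgeR called 4 lower and 2 higher. Calls were lost without PLDLS 1 for CDKN1A (0.119), CTSC (0.31) and CD63 (0.225), without PLDLS 2 for ITGA9 (0.0698), CDKN1A (0.268), CTSC (0.132) and CD63 (0.292), without EV 2 for CDKN1A (0.112), without PLASS 1 for CTSC (0.0903) and CD63 (0.113), without PLASS 2 for CTSC (0.116) and CD63 (0.134). Loss also occurred with DESeq2 size factors for CDKN1A (0.0503), CTSC (0.0516) and CD63 (0.0511), with upper-quartile scaling for CDKN1A (0.0569), with the filter of 2 CPM for CDKN1A (0.055), with only the PLDLS and EV libraries for CTSC (0.0948) and CD63 (0.111), in libraries thinned to equal depth for CD63 (0.0677).

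PLDLS was last set against PLASS, which shares its backbone and differs in the peptide. This asks whether the level with PLDLS differed from that with PLASS, which need not mean a larger difference from EV. It uses the same PLDLS libraries, so the tests are not independent. Over all tested genes 297 (2.03%) were called between the peptides. For ITGB7, PMP22 and ADAMTS8, the log2 difference of PLASS from EV was -0.0013 ± 0.23, -0.014 ± 0.19 and -0.032 ± 0.41, and PLDLS differed from PLASS in each. For MECOM, ID2, SMAD7, SLC7A11 and CDKN1A, PLASS lay at 2.0 ± 0.15, 1.42 ± 0.18, 1.16 ± 0.14, 1.36 ± 0.24 and 0.73 ± 0.18 from EV, and PLDLS at 0.40 ± 0.14, -0.10 ± 0.18, 0.34 ± 0.14, -0.021 ± 0.24 and 0.039 ± 0.18 from PLASS. None of those 5 was called between the peptides, which does not show that the peptides act alike on them.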

How the data were processed

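Poly-A RNA of 6 MUTZ3 libraries was sequenced without strand information, so a gene and an antisense partner share reads. The authors ran Salmon 0.3.1 after bcl2fastq 1.8.4 with hg38, per the submitters' processing notes. The annotation release is not given in these sources. The deposited estimated counts are reads that Salmon assigned to each RefSeq transcript, per the file headers. TPM values as deposited, which sum to 1000000 per library, served as a check, and the deposited effective length was an offset in an alternative fit. Of 69004 transcripts 99.4% were named from RefSeq (GRCh38.p14) and GENCODE tables, giving 27722 genes, and transcripts with no gene name held 0.0670% to 0.0891% of reads and were left out.

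The rounded gene sums went into edgeR's quasi-likelihood test (edgeR 4.0.16, R 4.3.3), with TMM scaling, filterByExpr, a term per group over all 6 libraries and the replicate number as a block, which left 2 residual degrees of freedom. Adjusted p-values are Benjamini-Hochberg over 14631 tested genes. Standard errors are the log2 difference over the root of F. The block was in the fit because the comparison is defined as paired by the experiment number in the table names, which equals the replicate number of the labels. The labels name no day or batch for it. Differences between the numbers correlated at 0.54 between PLDLS and EV, 0.72 between PLDLS and PLASS and 0.61 between PLASS and EV over 9322 genes. Replicates of each group differed beyond counting noise.

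Named genes are the 12 largest called differences each way with a mean of at least 2 CPM, groups that did not overlap and the same sign in both experiments, MECOM, CTBP1 and CTBP2, and in each list up to 4 members of smallest p. The members, the lists, the block and the tests were chosen with earlier results of these data known, and the motifs partly after their counts were seen. Some genes, 1 of them named by the rule, are not reported here. Alternatives were no block, DESeq2 1.42.0, limma-voom (limma 3.58.1), other scalings and filters, the effective-length offset, only the compared groups, equal depth and leaving out each library. Where that left a group with 1 library, it was assumed to vary like the others. Tables and plots were made with Python 3.11.15, pandas 2.3.3 and matplotlib 3.10.9.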

Additional observations from a re-analysis of the deposited data

Results flagged for a closer look

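For CTBP1 and for CTBP2, neither of them called, the log2 difference had opposite signs in the 2 experiments. The log2 difference of CTBP1 between PLDLS and EV was -0.082 in the fit, with -0.18 in experiment 1 and 0.024 in experiment 2. That of CTBP2 was -0.051, with 0.14 and -0.25. With 1 library per group in each experiment, the difference between the experiments was not tested.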

How the results depend on the processing

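Counts of called genes depended most on the replicate block and on single libraries. For PLDLS against EV the 621 called genes became 2 with no replicate block in edgeR, 5 without it in limma-voom, 267 without it in DESeq2 and 1023 with no expression filter. The range over left-out libraries was 283 to 2143. The 474 higher genes became 2, 5, 213 and 720, and 232 to 1220. The 147 lower genes became 0, 0, 54 and 303, and 51 to 923, and 227 when only the PLDLS and EV libraries were fitted. Without the block edgeR had 1047 genes at an unadjusted p under 0.05, limma-voom 1018 and DESeq2 1013. The 5 genes of limma-voom were MTURN, PMP22, CD207, ITGB7 and GCOM1, a readthrough gene, and were named after their values were seen. For PLDLS against PLASS edgeR called 0 without the replicate block, and DESeq2 118 without it. For PLASS against EV edgeR called 0 without the block, DESeq2 22 with it and 3 without it, and limma-voom 1 with it. For PLDLS against PLASS and PLASS against EV, the counts of edgeR without the block at an unadjusted p under 0.05 were 721 and 101. With the block, DESeq2, limma-voom, other scalings, equal depth and the stricter filter gave 565 to 732 calls, and 486 to 615 of them were among the 621.

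Of the 89 called genes that the rule named, 88 lost the call with no block, 29 without PLDLS 1, 33 without PLDLS 2, 6 without EV 2, 5 without PLASS 1, 4 without PLASS 2 and 0 without EV 1, and each kept its direction. The direction was largely set by picking genes called in these same libraries, so keeping it is no separate support. The log2 difference of CTBP1 was -0.20 to 0.019 over left-out libraries, above 0 without EV 1. That of CTBP2 was -0.21 to 0.081, above 0 without EV 2 and, at 0.068, without PLDLS 2. The biological coefficient of variation was 0.13 with the block, 0.236 without it and 0.090 without EV 1 or EV 2. The cause was not tested. PLDLS 2, at 5582078 reads, limits genes of few CPM.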

Other observations

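Other gene families also held calls between PLDLS and EV. They were picked after their values were seen, so their counts are descriptions with no test. Of 5 tested HOXB genes, which pattern progenitors, 3 were higher: HOXB5 at 11.4 and 10.02 CPM with PLDLS and 3.19 and 4.14 with EV, 1.60 ± 0.23 (adjusted p = 0.00726), HOXB6 at 20.1 and 23.8 CPM with PLDLS and 7.85 and 10.7 with EV, 1.27 ± 0.18 (adjusted p = 0.0067), and HOXB2 by 0.83 ± 0.18 (adjusted p = 0.0372). Of 9 Eph receptors, which bind ephrins on neighbouring cells, EPHB1 was higher, with both PLDLS libraries above the 4 others, by 2.08 ± 0.27 (adjusted p = 0.00508), as were EPHA4 by 2.30 ± 0.36 (adjusted p = 0.0101) and EPHA1 by 1.31 ± 0.18 (adjusted p = 0.00654), while EPHB4 changed by -1.35 ± 0.21 (adjusted p = 0.0105). Of 9 plexins, the semaphorin receptors, PLXNA2 was at 96.7 and 58.1 CPM with PLDLS, 27.5 and 20.9 with EV and 41.8 and 26.4 with PLASS, 1.65 ± 0.15 (adjusted p = 0.00191), and PLXNA4 rose by 1.06 ± 0.15 (adjusted p = 0.00662), while PLXNA1 fell by 0.96 ± 0.21 (adjusted p = 0.0361) on the log2 scale. Significance was lost without PLDLS 1 for HOXB5 (0.0897), HOXB6 (0.0682), HOXB2 (0.209), EPHA4 (0.288), EPHA1 (0.0658), EPHB4 (0.11) and PLXNA1 (0.219), without PLDLS 2 for HOXB2 (0.152) and PLXNA1 (0.114). The same held with the effective-length offset for HOXB2 (0.0523), in libraries thinned to equal depth for HOXB2 (0.0716). The fitted difference of EPHA4 was 1.29 without PLDLS 1.

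Of 7 toll-like receptors TLR6 was at 64.2 and 47.9 CPM with PLDLS, 25.7 and 12.1 with EV and 32.5 and 21.6 with PLASS, 1.62 ± 0.19 (adjusted p = 0.00375), TLR9 rose by 1.95 ± 0.34 (adjusted p = 0.0146), and TLR2 changed by -0.88 ± 0.17 (adjusted p = 0.0233). Of 10 MHC class I genes HLA-B was at 45.6 and 66.4 CPM with PLDLS, 91.2 and 155 with EV and 95.5 and 111 with PLASS, -1.12 ± 0.16 (adjusted p = 0.00688), with both PLDLS libraries below the 4 others, and the pseudogene HLA-H was also lower. Of 13 tubulins TUBB2A was at 8.39 and 15.96 CPM with PLDLS, 1.82 and 3.43 with EV and 2.79 and 9.73 with PLASS, 2.22 ± 0.27 (adjusted p = 0.00412), and TUBA1A rose by 1.20 ± 0.14 (adjusted p = 0.00388). Of 8 matrix metalloproteinases 3 were higher and 1 lower, with MMP2 at 45.8 and 78.5 CPM with PLDLS and 24.4 and 26.6 with EV, 1.23 ± 0.18 (adjusted p = 0.00816). No call remained without PLDLS 1 for TLR9 (0.0932), TLR2 (0.137) and HLA-H (0.2), without PLDLS 2 for TLR2 (0.154) and MMP2 (0.0581). Calls also ended in libraries thinned to equal depth for HLA-H (0.06). On the log2 scale the difference of TLR9 was 2.67 without EV 1.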
